A study of Mus musculus with 12 samples.

Results

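The 40 genes described here are markers of cell proliferation: genes that license and copy DNA in S phase, and genes that drive cells through mitosis. They were chosen by symbol, through the accession of each array probe, out of 17305 genes named on the array. No measured value entered the rule of choice, but earlier results of these data were known when it was made. *Cdk1* and *Aurka* were also sought under their older names. All 40 had at least 1 probe, 55 probes in all, and 39 of them passed the filter on dim probes. The exception was *Aurkb*, whose probe stood well above background in 0 of the 12 null channels and 0 of the 12 WT channels.

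Kidneys were taken at embryonic day 14.5 from *Bdkrb2* null and wild-type (WT) embryos on a C57BL/6 background. *Bdkrb2* encodes the bradykinin B2 receptor. Both genotypes came from *Bdkrb2* heterozygous mothers eating food with 5% sodium, mated to heterozygous mice, so gestational high salt was shared by both groups and kidneys without it were not analysed here. Total RNA of the genotypes was hybridised against each other on 12 two-colour arrays. Null was labelled with Cy5 in 3 replicates (null/WT) and with Cy3 in the other 3 (WT/null), always against WT in the other dye, and each replicate filled 2 arrays. The 4 arrays of a replicate number shared 1 slide. The series design text calls the replicates biological, but no label gives the number of embryos behind a sample, so the p-values measure only the spread between these samples.

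In background terms, a dividing cell loads the MCM helicase onto replication origins in G1 with the help of Cdc6 and Cdt1, fires those origins in S phase under cyclin E, cyclin A and CDK2, and enters mitosis under cyclin B and CDK1. Transcription follows the same order: E2F factors switch on replication genes around the G1/S border, and the MuvB complex with MYBL2 and FOXM1 switches on mitotic genes later, often through CHR elements near the start site. In the embryonic kidney these genes mark the nephron progenitors, ureteric tips and stroma that are dividing while the organ grows. RNA was made from whole kidneys, where fewer dividing cells and less RNA per dividing cell cannot be told apart.

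The promoters of the members carried these elements at different rates by role, and 4 are shown because their genes carry the results that follow or stand for a role. Windows of 300 bases (250 before to 50 after the RefSeq start, GRCm38.p6) were held for 32 of the 40 members. They were searched on both strands for E2F elements (TTTCCCGC, TTTGGCGC, TTTGCCGC or TTTCGCGC), CHR elements (TTTGAA or TTCGAA) and CCAAT boxes. The 200 bases before the start are given 5′ to 3′ on the gene's strand, with matches in capitals. *Mcm5* (chr8:75109309-75109508, plus strand), for an MCM helicase subunit, held 2 overlapping E2F elements and 2 CCAAT boxes. *Cdk1* (chr10:69352913-69353112, minus strand), for the mitotic kinase, held 1 E2F element, 2 CHR elements and 2 CCAAT boxes. *Rrm1* (chr7:102441495-102441694, plus strand) held 2 CCAAT boxes and *Rrm2* (chr12:24708054-24708253, plus strand) held 1.
Mcm5: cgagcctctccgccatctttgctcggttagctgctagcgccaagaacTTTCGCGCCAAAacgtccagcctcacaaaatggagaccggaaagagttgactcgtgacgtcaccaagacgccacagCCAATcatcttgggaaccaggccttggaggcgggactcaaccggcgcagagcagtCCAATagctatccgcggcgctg
Cdk1: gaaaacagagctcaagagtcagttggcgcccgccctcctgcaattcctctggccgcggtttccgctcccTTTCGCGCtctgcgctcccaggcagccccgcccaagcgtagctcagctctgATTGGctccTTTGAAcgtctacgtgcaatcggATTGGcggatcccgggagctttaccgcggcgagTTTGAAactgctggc
Rrm1: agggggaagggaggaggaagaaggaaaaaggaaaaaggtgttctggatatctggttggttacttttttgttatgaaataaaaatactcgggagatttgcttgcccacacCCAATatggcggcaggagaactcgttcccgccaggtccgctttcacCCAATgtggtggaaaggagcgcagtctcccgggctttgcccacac
Rrm2: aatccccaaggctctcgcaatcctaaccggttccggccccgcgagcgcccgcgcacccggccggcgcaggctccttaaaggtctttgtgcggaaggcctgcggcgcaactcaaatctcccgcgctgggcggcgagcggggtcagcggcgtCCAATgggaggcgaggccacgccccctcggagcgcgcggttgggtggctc

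An E2F element was present in 8 of the 32 member windows (25%), against 2.6% of the 27025 genes in the promoter table. Of those 8, 6 belonged to the 7 licensing genes with a window (*Cdc6*, *Cdt1*, *Mcm3*, *Mcm5*, *Mcm6* and *Mcm7*), and the others were *Cdk2* and *Cdk1*. A CHR element was present in 15 of 32 members (46.9%), against 21.7% of all genes. The mitotic roles held 13 of these 15, out of 18 mitotic members with a window (72.2%), while 0 of the 7 synthesis and G1/S genes had one. CCAAT boxes were held by 24 of 32 members (75%), against 41.1% of all genes. A match describes these letters only, and a window without one says nothing about the factor.

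The targeted gene could not check the labels, because its only probe exceeded background clearly in 0 of the 12 null channels and in 1 of the 12 WT channels. Between 40.5% and 57.8% of spots were well above background in the null channel and between 47.8% and 59.4% in the WT channel. The first array of WT/null replicate 3 stood apart: the SD of its log2 ratios was 0.381, and 0.164 to 0.256 on the other 11 arrays. The genotypes also differed in sex-linked transcripts on 2 slides. The Y-linked *Ddx3y* stood clearly over background in 4 of 4 WT channels and 0 of 4 null channels on slide 2 and again on slide 3, and *Xist* in 0 of 4 WT channels and 4 of 4 null channels there. On slide 1, *Ddx3y* was in 0 channels of either genotype and *Xist* in 4 of 4 of both. The null and WT samples of slides 2 and 3 therefore differed in sex-linked RNA as well as in *Bdkrb2* genotype, and its part in the values that follow was not tested.

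No cell cycle member passed the adjusted threshold for a difference between the genotypes. Of the 39 tested members, 0 passed a Benjamini-Hochberg adjusted p of 0.05 in limma, where 0.0237% of the 12647 tested genes did (3 genes). Among all 22979 probes it was 9 (0.0392%), or 4 with the replicate number as a block. An unadjusted p below 0.05 was reached by 2 members, *Rrm1* and *Mcm5*, beside 7.79% of all tested genes, and by 1 to 7 members over the settings tried. The value was log2 of null over WT, the mean of the 6 replicates, and outside *Rrm1* and *Rrm2* it lay between -0.15 and 0.09 for all other 37 members. The 95% interval, which takes the 6 replicates as independent, stayed within 0.25 of 0 for 36 of the 39, beside 84.5% of all genes. The exceptions were *Mcm3*, *Rrm1* and *Rrm2*.

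Most of these small values were negative: 30 of 39 members lay below 0 (76.9%), where 51.9% of all tested genes did, and the median was -0.04 against -0.0031 for all genes. That count rested on the loess normalization. With each array centred on its median instead, 38 of 39 lay above 0 with a median of 0.16, but the median of all genes moved to 0.16 too, and 20 of 39 members lay above it, against 9 with loess. The count also moved with the samples: 9 members lay above 0 over all 6 replicates (48.1% of all genes did), 14 without WT/null replicate 3, 14 without replicate 3 of both orientations and 15 without replicate 2 of both. No member had 1 sign in all 6 replicates, where 3.05% of all genes did (1.38% with all 6 below 0).

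**Figure D1:**
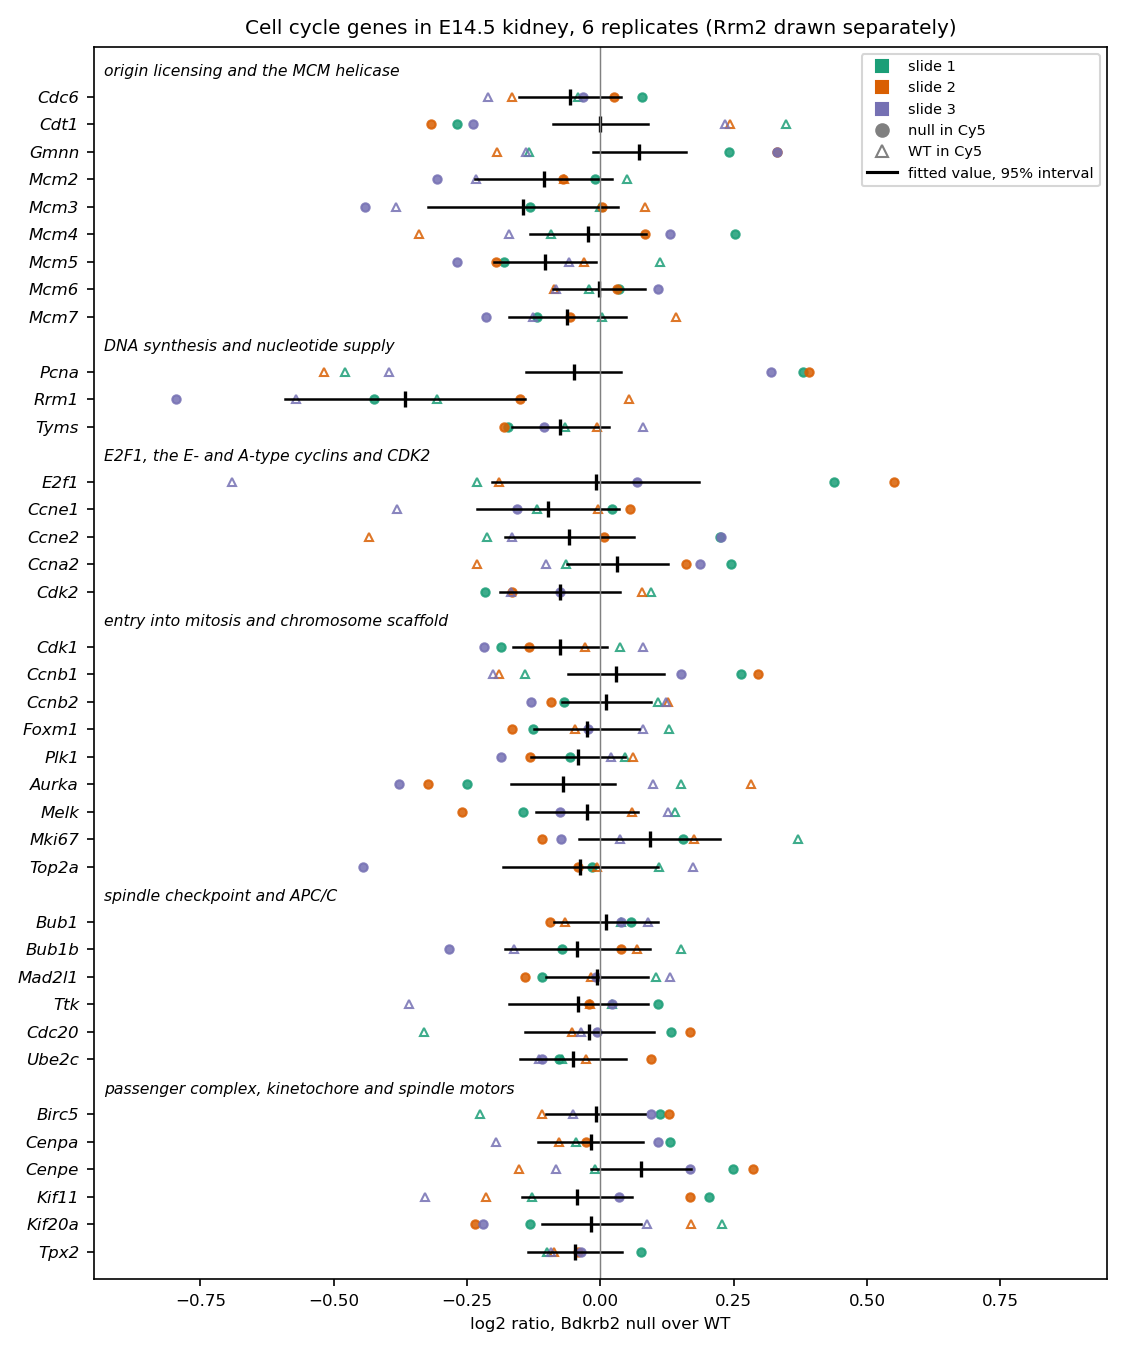
Log2 null over WT (horizontal) for 38 of the 39 tested members, grouped by role, without *Rrm2*. Circles (null in Cy5) and triangles (WT in Cy5) are the 6 replicates coloured by slide, black ticks and bars are the limma value and its 95% interval, and most intervals span 0 while *Rrm1* lay at -0.37.

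The licensing genes build the pre-replicative complex. Of 9, 7 lay below 0 and 2 above, with a median of -0.06, and 0 passed the adjusted threshold. *Mcm5* read -0.18, -0.20 and -0.27 in null/WT replicates 1, 2 and 3 and 0.11, -0.03 and -0.06 in WT/null replicates 1, 2 and 3. It was negative in 5 of 6 replicates, with WT/null replicate 1 on the other side. The mean was -0.10 ± 0.04 (SE, n = 6; limma adjusted p = 0.70). *Mcm2*, another helicase subunit, read -0.01, -0.07 and -0.31 in the null/WT replicates and 0.05, -0.07 and -0.23 in the WT/null ones. Both replicates of slide 3 were its lowest, and the mean was -0.11 ± 0.06 (SE, n = 6; limma adjusted p = 0.711).

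*Gmnn* encodes geminin, the inhibitor that binds Cdt1 and blocks relicensing. It read 0.24, 0.33 and 0.33 with null in Cy5 and -0.13, -0.19 and -0.14 with WT in Cy5, so its sign followed the dye. Its mean was 0.07 ± 0.04 (SE, n = 6; limma adjusted p = 0.711). *Cdt1*, the loader that geminin binds, did the opposite, with -0.27, -0.32 and -0.24 with null in Cy5 and 0.35, 0.24 and 0.23 with WT in Cy5. The orientations cancelled and left a 95% interval of -0.09 to 0.09. *Mcm3* had the lowest value of the role, -0.15 ± 0.08 (SE, n = 6; limma adjusted p = 0.711), and that came from slide 3, at -0.41 against -0.07 and 0.04 on slides 1 and 2. The other helicase subunits *Mcm4*, *Mcm6* and *Mcm7* and the loader *Cdc6* lay between -0.06 and -0.0031.

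Ribonucleotide reductase, which makes deoxynucleotides from ribonucleotides, supplied both members that departed from this pattern. Its large subunit *Rrm1* read -0.42, -0.15 and -0.80 in the null/WT replicates and -0.31, 0.05 and -0.57 in the WT/null replicates. It was lower in null in 5 of 6 replicates, with both orientations below 0 on slides 1 and 3. The mean was -0.37 ± 0.10 (SE, n = 6; 95% interval -0.59 to -0.14; limma adjusted p = 0.549). Its unadjusted p of 0.00562 was the smallest among the members. Over the 21 settings tried, its adjusted p came closest to the threshold at 0.0505, when the 12 arrays were fitted singly with the correlation of duplicates. With the replicate number as a block its p was 0.0164, and its adjusted p 0.904.

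By slide, *Rrm1* was 1.29-fold higher in WT on slide 1, 1.03-fold on slide 2 and 1.61-fold on slide 3. Its normalized log2 intensity on slide 3 was 12.37 to 12.54 in the 4 null channels and 13.07 to 13.21 in the 4 WT channels, without overlap. On slide 1 the channels did not overlap either, at 13.26 to 13.40 in null and 13.59 to 13.83 in WT, whereas on slide 2 they did, at 12.52 to 12.71 and 12.58 to 12.74. The 4 channels of a genotype on a slide came from 2 replicates of 2 arrays each, and were not independent samples. The difference between slides had an unadjusted p of 0.000781 and an adjusted p of 0.0507 (limma moderated F test).

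The small subunit *Rrm2* gave opposite values on different slides. On slide 1 it read 2.19 in null/WT and 1.69 in WT/null, on slide 2 -1.11 and -1.57, and on slide 3 0.05 and -0.35. Null was therefore 3.84-fold above WT on slide 1, WT was 2.53-fold above null on slide 2, and the orientations differed in sign on slide 3. In normalized log2 intensity, slide 1 gave 10.69 to 11.29 for null and 8.86 to 9.08 for WT. Slide 2 gave 8.80 to 9.23 for null and 10.12 to 10.48 for WT, and slide 3 gave 10.44 to 11.06 and 10.80 to 11.11. Each genotype thus had 1 slide with low *Rrm2*, a different one for each, and both were high on slide 3. One array of WT/null replicate 1 is missing from these values because its *Rrm2* spot was marked as an outlier.

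The mean of *Rrm2* over all 6 replicates was 0.15 ± 0.48 (SE, n = 6; limma adjusted p = 0.922), an average that describes none of the slides. The difference between slides passed the threshold (limma moderated F test, adjusted p = 0.000376). Among members 1 of 39 did so, where 1.67% of all tested genes did. The spread of its slide values, 3.28, ranked 5 among 12647 genes, against 276 for *Rrm1* at 0.635. The median spread over slides was 0.135 for the members and 0.169 for all genes.

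**Figure D2:**
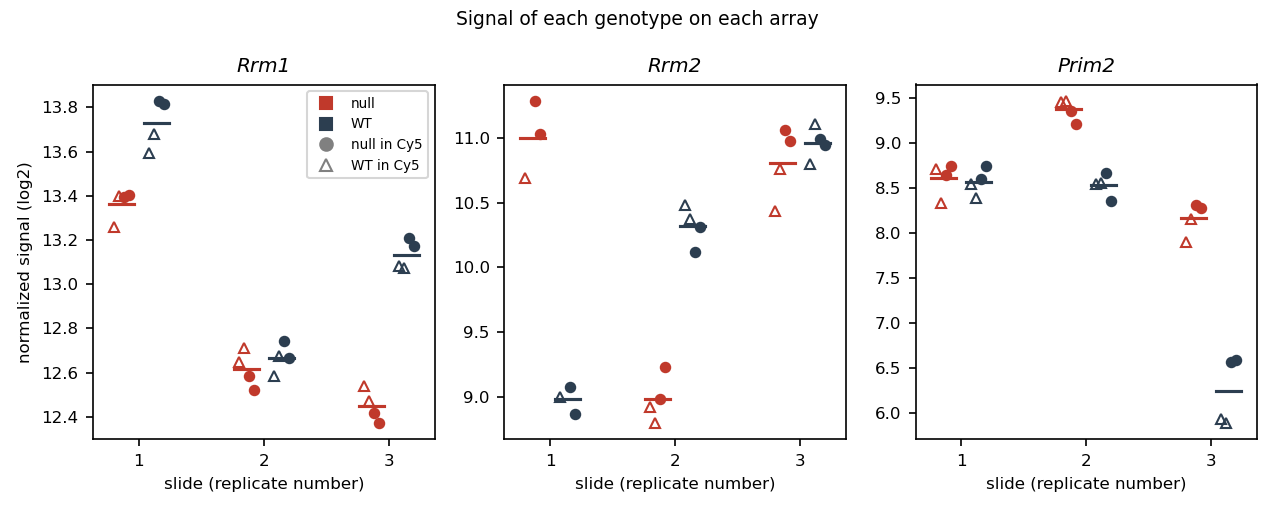
Normalized log2 signal (vertical) of *Rrm1*, *Rrm2* and the other replication gene *Prim2* in the null (red) and WT (dark) channel of each array, by slide (horizontal), with circles for null in Cy5, triangles for WT in Cy5 and lines at the mean. *Rrm1* was lower in null on slides 1 and 3, *Rrm2* was 3.84-fold higher in null on slide 1 and 2.53-fold higher in WT on slide 2, and *Prim2* in WT was near background on slide 3.

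The other 2 synthesis genes differed little. *Tyms*, the thymidylate synthase, read -0.17, -0.18 and -0.11 in the null/WT replicates and -0.07, -0.01 and 0.08 in the WT/null ones, negative in 5 of 6. Its mean was -0.08 ± 0.04 (SE, n = 6; limma adjusted p = 0.711). *Pcna*, the sliding clamp of the replicative polymerases, read 0.38, 0.39 and 0.32 with null in Cy5 and -0.48, -0.52 and -0.40 with WT in Cy5. Its values split fully by dye, and the mean was -0.05 ± 0.04 (SE, n = 6; limma adjusted p = 0.734).

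Among the G1/S genes, 4 of 5 lay below 0, with a median of -0.06, and 0 passed the adjusted threshold. *Ccne1*, cyclin E1, read 0.02, 0.06 and -0.16 in the null/WT replicates and -0.12, -0.0044 and -0.38 in the WT/null replicates. Slide 3 held its lowest replicates, and its mean was -0.10 ± 0.06 (SE, n = 6; limma adjusted p = 0.723). *Cdk2*, the kinase partner of cyclins E and A, read -0.22, -0.17 and -0.08, then 0.09, 0.08 and -0.17, with a mean of -0.08 ± 0.05 (SE, n = 6; limma adjusted p = 0.728). *Ccne2*, cyclin E2, read 0.22, 0.01 and 0.23, then -0.21, -0.43 and -0.17. The orientations had opposite signs, and the mean was -0.06 ± 0.05 (SE, n = 6; limma adjusted p = 0.748). *Ccna2*, cyclin A2, had 0.03.

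*E2f1*, the transcription factor that drives many replication genes, had a mean of -0.01 ± 0.08 (SE, n = 6; limma adjusted p = 0.979) with slide values of 0.10, 0.18 and -0.31. Slides 1 and 2 lay above 0 and slide 3 below. The difference between its slides had an unadjusted p of 0.00185 and an adjusted p of 0.0715 (limma moderated F test). Without slide 3 it was the member with the smallest p, 0.00885 (adjusted p = 0.377, limma). These values are from the brightest probe. A second, dimmer *E2f1* probe read -0.06, 0.14 and -0.30 on slides 1, 2 and 3, so slide 1 lay below 0 there.

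The genes for entry into mitosis held 6 of 9 values below 0, with a median of -0.03, and 0 passed the adjusted threshold. *Cdk1*, the kinase of mitotic entry, read -0.19, -0.13 and -0.22 in the null/WT replicates and 0.04, -0.03 and 0.08 in the WT/null replicates. Its 3 slide values were nearly equal, between -0.08 and -0.07, and its mean was -0.08 ± 0.04 (SE, n = 6; limma adjusted p = 0.71). *Aurka*, a centrosome kinase, read -0.25, -0.32 and -0.38, then 0.15, 0.28 and 0.10. It split fully by dye, with a mean of -0.07 ± 0.04 (SE, n = 6; limma adjusted p = 0.723). *Mki67*, which coats mitotic chromosomes and encodes the Ki-67 antigen used to count cycling cells, read 0.16, -0.11 and -0.07, then 0.37, 0.18 and 0.04. It was above 0 in 4 of 6 replicates and on slide 1 reached 0.26. The mean was 0.09 ± 0.06 (SE, n = 6; limma adjusted p = 0.724), the highest of the members besides *Rrm2*.

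The remaining genes of that role lay between -0.04 and 0.03. They were the cyclins *Ccnb1* and *Ccnb2*, the transcription factor *Foxm1*, the kinases *Plk1* and *Melk*, and the topoisomerase *Top2a*, which untangles replicated chromosomes.

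The spindle checkpoint holds cells in metaphase until chromosomes are attached, and the anaphase-promoting complex then releases them. Of these 6 genes, 5 lay below 0, with a median of -0.03, and 0 passed the adjusted threshold. *Ube2c*, the ubiquitin-conjugating enzyme of that complex, read -0.08, 0.10 and -0.11 in the null/WT replicates and -0.07, -0.03 and -0.11 in the WT/null replicates. It was below 0 in 5 of 6, with a mean of -0.05 ± 0.04 (SE, n = 6; limma adjusted p = 0.74). *Bub1b*, a checkpoint kinase-like protein, read -0.07, 0.04 and -0.28, then 0.15, 0.07 and -0.16. Slide 3 again held its lowest values, and the mean was -0.04 ± 0.06 (SE, n = 6; limma adjusted p = 0.812). *Ttk*, the kinase MPS1, read 0.11, -0.02 and 0.02, then 0.02, -0.02 and -0.36, with a mean of -0.04 ± 0.06 (SE, n = 6; limma adjusted p = 0.815). Its WT/null replicate 3, at -0.36, lay below the range of -0.02 to 0.11 of the other 5. The checkpoint genes *Bub1* and *Mad2l1* and the activator *Cdc20* lay between -0.02 and 0.01.

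The last role covers kinetochore proteins and spindle motors, where 5 of 6 tested genes lay below 0, with a median of -0.02, and 0 passed the adjusted threshold. *Cenpe*, a kinetochore motor, read 0.25, 0.29 and 0.17 in the null/WT replicates and -0.01, -0.15 and -0.08 in the WT/null replicates, split by dye on its brightest probe. The dimmer *Cenpe* probes lay above 0 in 5 of 6 and in 1 of 6 replicates, without that split. *Cenpe* had the only value above 0 of the role, 0.08 ± 0.04 (SE, n = 6; limma adjusted p = 0.711), and its 3 probes ranged from -0.01 to 0.09. *Tpx2*, a spindle assembly factor that activates Aurora A, read 0.08, -0.04 and -0.04, then -0.10, -0.09 and -0.09, with a mean of -0.05 ± 0.04 (SE, n = 6; limma adjusted p = 0.735). *Kif11*, the motor that separates spindle poles, read 0.20, 0.17 and 0.03, then -0.13, -0.21 and -0.33. It split by dye as well, with a mean of -0.04 ± 0.05 (SE, n = 6; limma adjusted p = 0.764). *Birc5*, the histone variant *Cenpa* and the motor *Kif20a* lay between -0.02 and -0.0084.

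Several members had more than 1 tested probe (11 genes), and their probes lay at most 0.10 apart. The probes had opposite signs in *Bub1* and *Cenpe*, both close to 0.

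More members passed the test for dye than the test for genotype. The dye term of the fit, Cy5 over Cy3, passed the adjusted threshold for 12 of 39 members, where 15.7% of all tested genes did. Of these 12, 9 were brighter in Cy5 and 3 in Cy3. A dye term belongs to the brightest probe, and other probes of a gene can differ. *E2f1* had 0.36 on that probe and -0.11 on its dimmer one. *Pcna* had a dye term of 0.41 (limma adjusted p = 0.00229), *Gmnn* 0.23 (adjusted p = 0.00983) and *Cdt1* -0.27 (adjusted p = 0.00645). For 17 of 39 members (43.6%), all replicates of one orientation lay above 0 and all of the other below, which held for 24.9% of all tested genes. Both orientations weigh equally in the genotype values, so this term cancels in them.

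**Figure D3:**
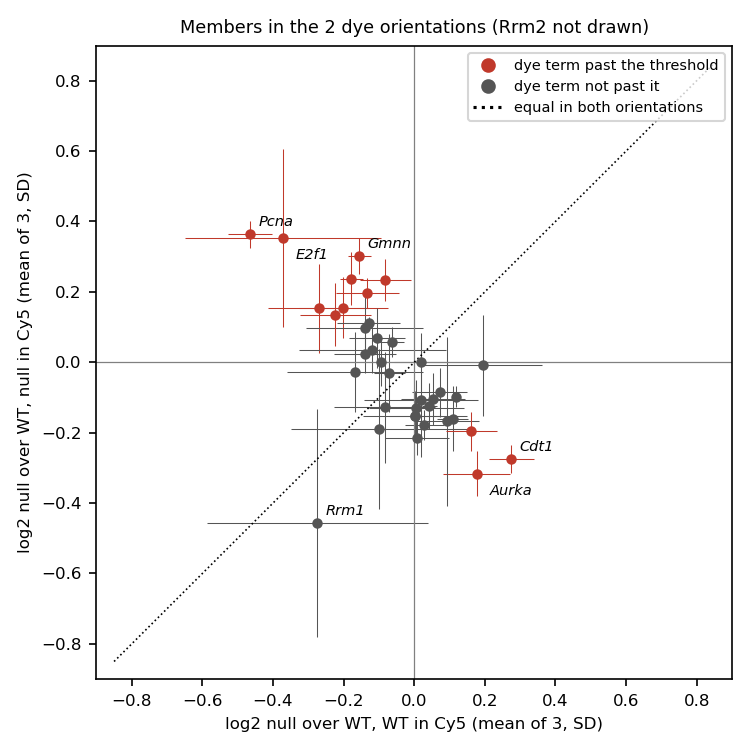
Mean log2 null over WT of the 3 WT/null replicates (horizontal) against that of the 3 null/WT replicates (vertical) for 38 members, without *Rrm2*, with SD bars. Red points are the 12 whose dye term passed the threshold, such as *Pcna* and *Cdt1* in opposite corners, and *Rrm1* lay near the dotted line of equal values.

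By slide, the median of the members was 0.01 on slide 1, -0.03 on slide 2 and -0.07 on slide 3, against 0.0034, -0.0049 and -0.0032 for all tested genes. On slide 1, 22 of 39 members lay above 0, on slide 2 13 and on slide 3 10. Of all 12647 tested genes, 6562, 5970 and 6218 lay above 0 on slides 1, 2 and 3. Of the 39, 29 lay below 0 on slide 3 (74.4%), where 50.8% of all genes did. By role, the medians on slide 3 were -0.12 for licensing, -0.09 for synthesis, -0.12 for G1/S, -0.02 for mitotic entry, -0.07 for the checkpoint and -0.05 for the kinetochore and spindle genes, and differences between roles were not tested. The spread of all genes was wider on slide 3, with a 5% to 95% range of -0.30 to 0.30 against -0.13 to 0.16 on slide 1, and 3 members lay outside that range on each slide. An unadjusted p below 0.05 for a difference between slides was reached by 9 of 39 members, a share close to the 19.8% of all tested genes, and past the adjusted threshold was *Rrm2* alone of the 39.

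**Figure D4:**
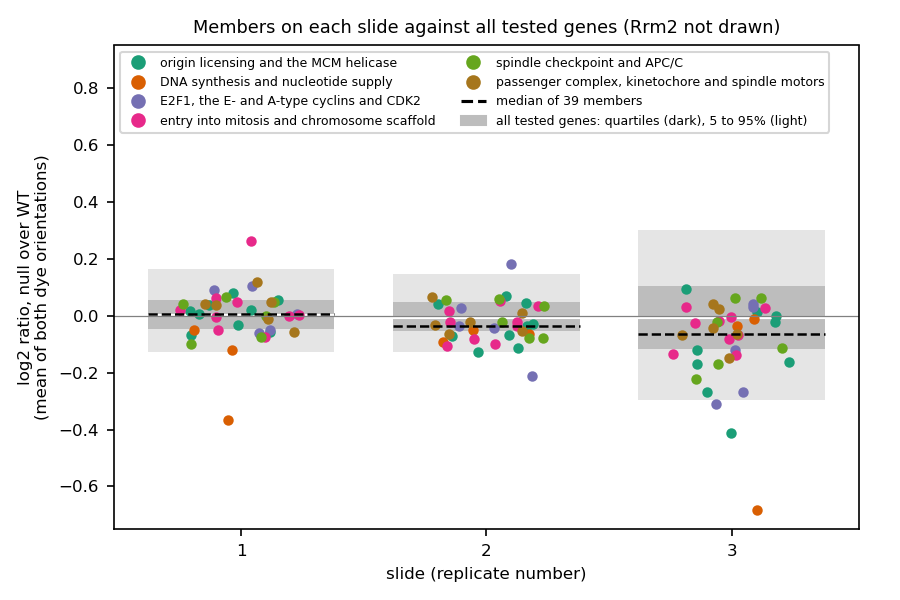
Log2 null over WT (vertical, mean of both orientations) of 38 members, without *Rrm2*, on slides 1, 2 and 3, coloured by role. Dashed lines are the medians of all 39 members (0.01, -0.03 and -0.07) and grey bands the quartiles and the 5% to 95% range of all tested genes, which were widest on slide 3.

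Values of some cell type markers differed over the slides as well. By the limma moderated F test, differences between slides passed the adjusted threshold for 6 of 9 differentiated tubule markers. They did so for 5 of 8 skeletal muscle, 1 of 7 erythroid and 1 of 5 liver markers. In the other lists, nephron progenitors included, 0 markers passed, beside 1.67% of all tested genes. All 8 nephron progenitor markers listed passed the filter on dim probes, and of the 8 ureteric bud markers 7 did, with *Ret* at background on all arrays. The 8 nephron progenitor markers had medians of -0.0013, -0.04 and -0.21 on slides 1, 2 and 3, and 0 of 8 lay above 0 on slide 3. Their summed normalized intensity was 29063 to 34667 in null and 31993 to 39581 in WT over the 6 replicates. The 9 differentiated tubule markers had medians of 0.03, 0.21 and 1.03, with 9 of 9 above 0 on slide 3, and summed intensities of 4040 to 12834 in null and 3681 to 10540 in WT. The 8 skeletal muscle markers, for a tissue outside the kidney, had medians of 0.14, 0.42 and 1.64, with 8 of 8 above 0 on slide 3 and sums of 1376 to 5131 in null and 1304 to 1493 in WT. The 8 stroma markers had medians of 0.13, 0.10 and 0.15, with 5 of 8 above 0 on slide 3, and the 7 ureteric bud markers 0.03, 0.06 and -0.11, with 1 of 7 above 0 there. The 5 liver markers had 0.01, 0.05 and 0.26, with mean summed intensities on slide 3 of 6568 in null and 2907 in WT, and *Apoa1* and *Ttr* of that list at background on all arrays. On slide 3 the medians were 0.11 for endothelium, 0.20 for podocytes, 0.23 for leukocytes, 0.11 for erythroid cells, -0.08 for adrenal and -0.21 for neural crest markers. The part of cell composition in the cell cycle values was not tested.

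Of 110 other cell cycle genes, 102 were tested, and 0 passed the adjusted threshold in limma. Their median was -0.02, with 71 below 0 and 31 above, where 51.9% of all tested genes lay below 0. An unadjusted p below 0.05 was reached by 5 of 102, beside 7.79% of all tested genes. The other replication genes lay below 0 most often, 30 of 35, followed by the other mitotic genes at 26 of 36. The CDK inhibitors split 5 above to 4 below, and the other E2F, DP, MYB and MuvB factors 8 above to 5 below.

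*Prim2*, the large primase subunit, had the largest value of these genes, 0.93 ± 0.27 (SE, n = 6; limma adjusted p = 0.588), above 0 in 6 of 6 replicates. That mean includes WT signals near background on slide 3. It was 0.04 on slide 1 and 0.84 on slide 2. On slide 3 the WT probe was not well above background on any of 4 arrays. Measured values there were 1.72 in null/WT replicate 3 and 2.11 in WT/null replicate 3. With WT raised to the lowest signal well above background where it lay lower, null averaged 3.43-fold higher there. That average is not a lower limit for each replicate. The *Prim2* difference between slides passed the threshold (limma moderated F test, adjusted p = 0.00473). The single-stranded DNA binding subunit *Rpa1* lay at -0.11 ± 0.04 (SE, n = 6; limma adjusted p = 0.695), below 0 in 6 of 6 replicates. The polymerase alpha subunit *Pola2* had -0.15 and the ligase *Lig1* -0.09.

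The retinoblastoma gene *Rb1* lay at 0.24 ± 0.07 (SE, n = 6; limma adjusted p = 0.588), with slide values of 0.38, 0.01 and 0.31. The CDK inhibitor *Cdkn2c* lay at 0.15 ± 0.04 (SE, n = 6; limma adjusted p = 0.594), at 0.09, 0.11 and 0.24 by slide. Other inhibitors and exit genes were smaller: *Cdkn2d* -0.04, *Gas1* 0.04 and *Cdkn1c* -0.06. Among the G1 genes, *Cdk4* had -0.13, *Cdk6* -0.11 and *Mycn* -0.07. The kinetochore gene *Cenpf* lay at 0.15 ± 0.06 (SE, n = 6; limma adjusted p = 0.707), and *Knstrn*, *Cenpn* and *Bub3* between -0.09 and -0.06. Of the factors, *E2f7* and *E2f8*, which repress E2F targets, had 0.06 and 0.04, and *Mybl2* and *Tfdp1* -0.05 and -0.04.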

How the data were processed

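Median spot and local background intensity of each dye was deposited without normalization, per the file headers. Processed signals and their log10 ratio (Cy5 over Cy3) stand beside them, per the file headers from Agilent Feature Extraction 10.5.1.1, whereas version 6.1 is named by the submitters' processing notes. The value table deposited by the authors holds log10 ratios of null over WT, with direction and scale read from correlations of 0.998 to 0.999 and slopes of 1.00 against the scanner's ratios. The medians of its columns were 0.000114, -0.00174, -0.00332, -0.00315, 0.00645 and 0.00146 for null/WT. For WT/null they were -0.00257, -0.00441, -0.000946, -0.000769, -0.0218 and -0.0100, and how its blank entries were chosen stays unknown. It had 0 columns without a sample.

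Intensities were corrected with normexp (offset 50) and normalized by loess within arrays, with control and outlier spots at weight 0. Spots of a probe and the 2 arrays of a replicate were averaged. Probes well above background in 1 genotype's channel on at least 6 of 12 arrays were tested: 22979 of 41174, covering 12647 genes named through RefSeq (GRCm38.p6) accessions. For 25097 of the probes a symbol was found. The brightest tested probe gave a gene's value. Log2 ratios computed from the deposited intensities were fitted with limma 3.58.1 in R 4.3.3, with genotype and dye terms, and p-values were adjusted over all tested probes. Precision is limited by the number of independent replicates, and the median SE of the members was 0.0426. On data simulated with the same dye orientations but independent noise for each replicate, 79 of 100 probes changed by 0.5 on the log2 scale were called. For a change of 1 it was 100 of 100. Same-numbered replicates deviated together in the real data, which was not simulated, so these rates can be too high.

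Replicates of the same number shared a slide and deviated together (correlations of 0.587, 0.517 and 0.413 after removal of each orientation's mean), so the numbers were taken to pair the samples. If the same extracts served both orientations of a number, the unpaired p-values are too small. All members are named, with values by replicate for the 3 of each role with the smallest p while *Rrm2*, *Cdt1*, *Mcm3* and *E2f1* are given in more detail after their values were seen. Of the other cell cycle genes, up to 4 per list with the smallest p are named. The members and lists were chosen with earlier results of these data known. The test of differences between slides was added after seeing the data.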

Additional observations from a re-analysis of the deposited data

Results flagged for a closer look

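*Rrm2* had values of null over WT that differed between slides, by a test of the difference itself (limma moderated F test, adjusted p = 0.000376). Null over WT was 1.94 on slide 1, -1.34 on slide 2 and -0.15 on slide 3 on the log2 scale. Of the 39 tested members, 3 had 1 replicate far from the other 5 by Dixon's criterion (the gap to the nearest other replicate over the whole range, at the 95% critical value), on the log2 values as measured. *Top2a* read -0.44 in null/WT replicate 3, against -0.04 to 0.17 in the others. *Ttk* read -0.36 in WT/null replicate 3, against -0.02 to 0.11. *Tpx2* read 0.077 in null/WT replicate 1, against -0.10 to -0.04. Chance flags about 1 in 20 groups, and with the dye term removed from the values 0 of the 39 stood out.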

How the results depend on the processing

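No member passed the adjusted threshold in any setting: the smallest adjusted p was 0.0505 with the 12 arrays fitted singly and 0.377 to 0.953 in the other settings. With the replicate number as a block (3 dye-swap pairs), 4 probes passed instead of 9, 0 of them members, and this changed no other call. Fitting the 12 arrays singly gave 148 probes, and leaving out the first array of WT/null replicate 3, a setting chosen after seeing the data, gave 15. Leaving out replicates gave 3 (without number 2) to 62 (without number 3). Median centring gave 38 of 39 members above 0 and a median of 0.16. The median of all tested genes was 0.16 there too, and 20 of 39 members lay above it, so the shift was not particular to the members. Its cause was not tested. Leaving out replicates gave 7 to 15 members above 0 and medians of -0.06 to -0.02. Signs differed for 29 of 39 members with median centring and for 0 to 7 in the other settings. Signal over background limits *Aurkb*, which has no value, and makes some tested members less certain. *Cenpa* was well above background in 9 of the 12 channels of each genotype. *Mcm2* was so in 10 and *Ttk* in 11 of the 12 null channels.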

Other observations

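Differences between slides past the adjusted threshold were also found in 4 of the 102 other cell cycle genes tested, beside 1.67% of all tested genes: *Prim2*, *Pttg1*, *Nek2* and *E2f6*. *Pttg1*, which encodes securin, the inhibitor of separase, read -0.70 on slide 1, 0.02 on slide 2 and 0.63 on slide 3 (log2 null over WT; limma moderated F test, adjusted p = 0.00478). Another mitotic gene outside the lists, *Ncapg2*, a condensin II subunit, was 4.85-fold higher in null (log2 2.28 ± 0.05, SE, n = 6; limma adjusted p = 1.39e-06) and above 0 in 6 of 6 replicates, and was chosen after its value was seen. *Ncapg2* lies on chromosome 12, as does the targeted *Bdkrb2*. The part of DNA linked to the targeted locus in this value was not tested.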
